A study of Mus musculus with 6 samples.

Results

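The Ikaros family of zinc finger transcription factors comprises 5 genes, Ikzf1 (Ikaros), Ikzf2 (Helios), Ikzf3 (Aiolos), Ikzf4 (Eos) and Ikzf5 (Pegasus). They were picked by gene name, and all 5 were found among the 55840 genes of the deposited table and passed the filter on low counts. RNA sequencing had been done on mouse regulatory T cells (Tregs), the CD4 T cells that restrain immune responses and depend on the transcription factor Foxp3, taken from spleen and lymph nodes. The 3 WT libraries came from cells with wild-type Foxp3. The other 3, labelled Exon2KO, came from cells of the genotype that the series title writes as Foxp3∆2, in which exon 2 of Foxp3 is missing. The labels call the samples of a genotype biological replicates. How the cells were sorted, the age and sex of the mice and any other allele are not given in the sources used here. The columns of the table carry the numbers 2, 6 and 20 in each genotype, so libraries are named by genotype and number, such as WT 20.

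Ikaros family proteins bind DNA through zinc fingers near their amino end and pair with themselves and with each other through further fingers at the carboxyl end. Most of what they do is recruit chromatin complexes such as NuRD, CtBP and Sin3, which usually silence the bound genes. In Tregs, Helios marks many cells of thymic origin and helps to keep the Treg state stable, and Eos serves Foxp3 as a corepressor partner. Ikaros is expressed throughout the lymphoid lineage, Aiolos in mature lymphocytes, and Pegasus is the most divergent member. Because fewer cells of a type and less RNA per cell look the same in bulk RNA, the levels below are averages over whatever cells each library held.

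The 4 members with high levels in these cells share a nearly common DNA-recognition finger, and the DNA that encodes it shows how alike, and how distinguishable, their transcripts are. The lines give the coding strand of the second zinc finger, read from the longest GENCODE coding transcript of each gene (release 21, build GRCm38), with the codons of the zinc-holding cysteines and histidines in capitals. The finger lies in exon 6 of that transcript of Ikzf1 (chr11:11754024-11754086, plus strand) and in exon 5 of those of Ikzf2 (chr1:69570581-69570643, minus strand), Ikzf3 (chr11:98488940-98489002, minus strand) and Ikzf4 (chr10:128640229-128640291, minus strand).
Ikzf1: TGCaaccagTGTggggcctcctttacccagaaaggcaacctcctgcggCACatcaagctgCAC
Ikzf2: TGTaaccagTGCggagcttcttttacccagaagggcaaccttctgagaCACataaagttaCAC
Ikzf3: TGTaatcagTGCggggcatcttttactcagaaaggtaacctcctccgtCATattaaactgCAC
Ikzf4: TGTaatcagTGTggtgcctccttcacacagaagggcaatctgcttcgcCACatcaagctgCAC

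Over these 63 bases Ikzf1 and Ikzf4 shared most, 53 bases or 84.1%. Ikzf2 shared 51 bases (81.0%) with Ikzf1 and 48 (76.2%) with each of Ikzf3 and Ikzf4. The most similar finger of Ikzf5 matched only 31 bases of the Ikzf1 finger. Between the longest coding transcripts of any pair of members, the longest identical run was 26 bases, for Ikzf1 and Ikzf3, and it was 17 bases for Ikzf1 and Ikzf2. Each gene therefore has its own bases throughout, although how reads that match several genes were counted is not given in the sources used here.

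Levels of different genes can be compared only per length. For this, the CPM of a gene (its counts scaled to a common library size, as defined with the tests) was divided by the gene length given in the deposited table, which gives CPM per kilobase. In WT, Ikzf1 had the highest level per kilobase in all 3 libraries, at 68.5, 67.9 and 76.2 CPM per kilobase in WT 2, 6 and 20. Ikzf2 came next at 56.5, 53.9 and 66.6 CPM per kilobase, below every Ikzf1 value. This order rests on the table's gene lengths, 5777 bases for Ikzf1 and 11613 for Ikzf2. In CPM, Ikzf2 was the higher, with WT means of 685 against 410. The length of the transcripts that the cells used was not measured, which also limits the shares and ratios per kilobase below. Ikzf3 followed at 38.6 ± 4.0 CPM per kilobase and Ikzf4 at 31.2 ± 3.22 CPM per kilobase (SD, n = 3 each). The ranges of these 2 neighbours met, from 34.3 to 42.3 for Ikzf3 and from 28.4 to 34.7 for Ikzf4, although Ikzf3 was above Ikzf4 in every library. Ikzf5 stood far below the others at 0.562 ± 0.110 CPM per kilobase (SD, n = 3).

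In Exon2KO the top of that order was the same and its middle was not. Ikzf1 stood at 88.0, 88.3 and 93.9 CPM per kilobase in Exon2KO 2, 6 and 20. Ikzf2 was at 36.4, 32.7 and 43.1 CPM per kilobase, which placed it below Ikzf3 in Exon2KO 2 and 6 and above it in Exon2KO 20. Ikzf3, at 39.4, 41.9 and 33.8 CPM per kilobase, covered an overlapping range, so these neighbours did not differ beyond their spread. Ikzf4 was at 26.8, 24.2 and 30.8 CPM per kilobase, below both in each library, and Ikzf5 at 0.468 ± 0.103 CPM per kilobase (SD, n = 3).

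Foxp3, the edited gene, was examined before the members. It was detected in all 6 libraries, at 783, 602 and 751 CPM in WT 2, 6 and 20 and at 826, 684 and 925 CPM in Exon2KO 2, 6 and 20. The groups overlapped. Foxp3 was higher in Exon2KO by 0.19 on the log2 scale, with an SE of 0.13 (adjusted p = 0.693 in edgeR without a block and 0.106 with it), and no fall of Foxp3 RNA was detected beside that of Ikzf2. Counts over the whole gene cannot show whether exon 2 was missing, so they do not check the labels.

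Whether the genotype changed each member was tested with edgeR's quasi-likelihood test over all 14919 genes that passed the filter. Levels within 1 gene are given as CPM, its counts scaled to 1000000 counts of the TMM-adjusted library size. The threshold for a call was an adjusted p of 0.05, and 2.33% of all tested genes were below it. Of the 5 members, 1 was called, Ikzf2, which was lower in Exon2KO. With the shared column number as a replicate block, 2 were called, Ikzf2 lower and Ikzf1 higher, where 9.72% of all genes were. The groups did not overlap in CPM for these same genes, Ikzf1 and Ikzf2, a pattern that 17.7% of tested genes showed.

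Helios is the family member most used as a Treg marker. Ikzf2 (ENSMUSG00000025997, chr1:69531214-69687245, minus strand, build mm10, which is GRCm38) was counted 12224, 11367 and 16478 times in WT 2, 6 and 20, against 7608, 7393 and 8902 times in Exon2KO 2, 6 and 20. Scaled for depth, these were 656, 626 and 773 CPM in WT and 423, 379 and 501 CPM in Exon2KO. The lowest WT library lay above the highest Exon2KO library, and the libraries numbered 20 were the highest of their genotype on both sides. Its mean fell from 685 ± 77.7 CPM in WT to 434 ± 61.6 CPM in Exon2KO (SD, n = 3 each).

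For Ikzf2, edgeR gave a log2 difference of -0.66 with an SE of 0.12 and an adjusted p of 0.024, which is 0.634-fold with a 95% confidence interval of 0.526 to 0.763. Within the pairs of equal number the log2 difference was -0.63, -0.72 and -0.63 for numbers 2, 6 and 20, so its size varied little from pair to pair. With the replicate block the log2 fold change was again -0.66 and its SE was 0.06 (edgeR adjusted p = 6.35e-06). In the fits that left out 1 library, Ikzf2 ran from -0.78 to -0.56. It kept its call only without Exon2KO 20 (edgeR adjusted p = 0.00887) and lost it without WT 2, WT 6, WT 20, Exon2KO 2 or Exon2KO 6, where the edgeR adjusted p lay between 0.0528 and 0.122. Without both libraries numbered 20, it was -0.68 (edgeR adjusted p = 0.00471).

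**Figure D1:**
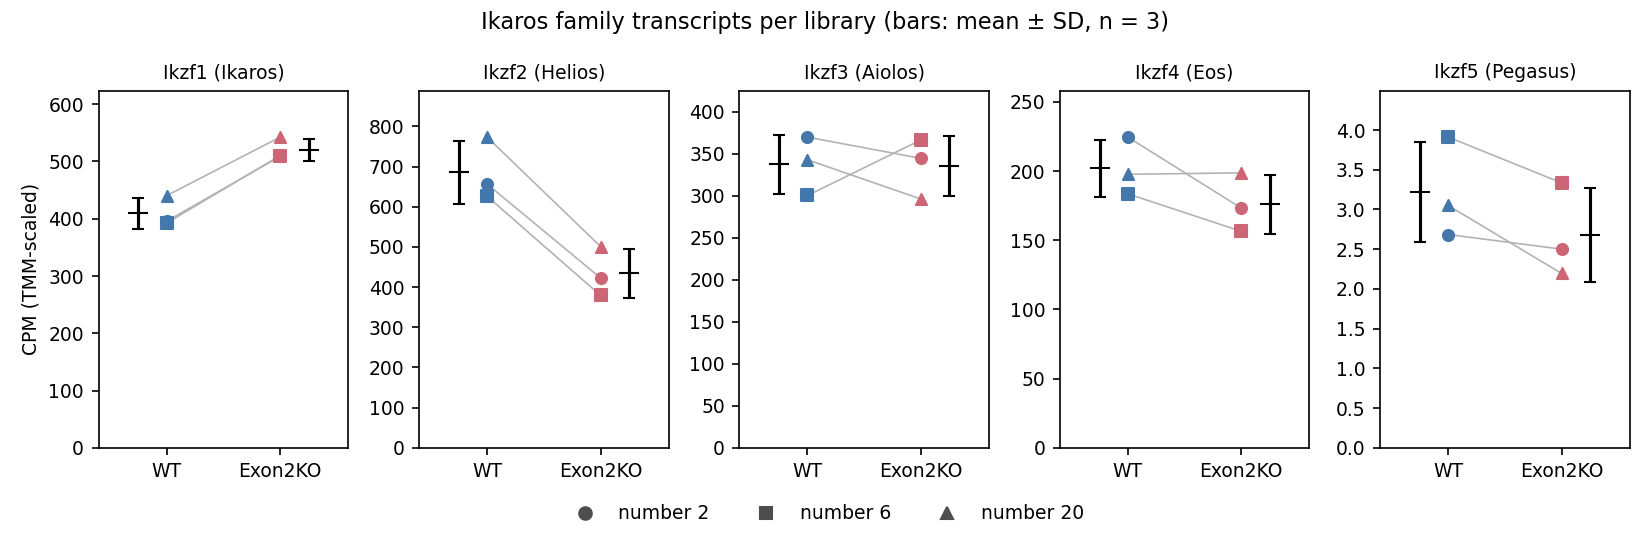
CPM of each Ikaros family gene (1 panel a gene, vertical axes from 0 and of different height) in the 3 WT and 3 Exon2KO libraries; marker shapes give the column number, grey lines join libraries of equal number, and black bars are the mean ± SD. All 3 lines fall for Ikzf2 and rise for Ikzf1, while those of Ikzf3 cross.

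Ikaros, the founding member, went the other way. Ikzf1 (ENSMUSG00000018654, chr11:11685003-11772926, plus strand) was counted 7371, 7125 and 9385 times in WT 2, 6 and 20, against 9153, 9949 and 9641 times in Exon2KO 2, 6 and 20. In CPM these were 396, 392 and 440 in WT and 509, 510 and 542 in Exon2KO. Every Exon2KO library was above every WT library. The means were 410 ± 26.8 CPM in WT and 520 ± 19.1 CPM in Exon2KO (SD, n = 3 each). That is 0.35 on the log2 scale with an SE of 0.08, or 1.27-fold with a 95% confidence interval of 1.12 to 1.44.

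In the fit without a block this difference missed the threshold (edgeR adjusted p = 0.0585). With the replicate block it passed at the same size, 0.35 on the log2 scale with an SE of 0.06 (adjusted p = 0.00166 in edgeR), and the differences within the pairs were 0.36, 0.38 and 0.30 for numbers 2, 6 and 20. It also passed with DESeq2 (adjusted p = 0.00218; 4.47% of genes called) and without a count filter (edgeR adjusted p = 0.019; 2.30% called). It missed the threshold with RLE or upper-quartile scaling, limma-voom, no robust estimation or a minimum of 10 counts in each library, where the adjusted p lay between 0.0514 and 0.0785, and without both libraries numbered 20 (edgeR adjusted p = 0.0597). Leaving out WT 20 gave 0.40 (edgeR adjusted p = 0.0413), while the other 5 fits that left out 1 library did not pass (edgeR adjusted p between 0.144 and 0.218). Over all 6 the value ran from 0.31 to 0.40. In the authors' deposited table, where 2.55% of genes with a value have an adjusted p under 0.05, Ikzf1 is listed at a log2 fold change of 0.35 (adjusted p = 0.00478) and Ikzf2 at -0.66 (adjusted p = 7.88e-06). The authors' deposited table lists adjusted p-values of 0.681 to 0.999 for Ikzf3, Ikzf4 and Ikzf5.

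Eos, the member known as a partner of Foxp3, was not called in any fit. Ikzf4 (ENSMUSG00000002578, chr10:128630843-128669358, minus strand) stood at 225, 184 and 198 CPM in WT 2, 6 and 20 and at 173, 156 and 199 CPM in Exon2KO 2, 6 and 20. Exon2KO 2 and 6 lay below all WT libraries, while Exon2KO 20 was level with WT 20, so the genotypes shared part of their range. In edgeR, Ikzf4 was at -0.20 on the log2 scale with an SE of 0.11 and an adjusted p of 0.555, and a 95% confidence interval of -0.44 to 0.04. With the replicate block it was -0.20 (SE 0.07, edgeR adjusted p = 0.101), made up of -0.37, -0.23 and 0.0075 in the pairs numbered 2, 6 and 20.

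For Aiolos, no difference was detected. Ikzf3 (ENSMUSG00000018168, chr11:98464902-98546031, minus strand) stood at 370, 301 and 343 CPM in WT and at 345, 367 and 296 CPM in Exon2KO libraries 2, 6 and 20. The groups covered almost the same range. In edgeR the log2 fold change of Ikzf3 came to -0.0084 with an SE of 0.11 and an adjusted p of 0.992, and its 95% confidence interval, from -0.24 to 0.23, does not reach the value of Ikzf2 or that of Ikzf1. Its pairs moved in different directions, with a log2 difference of 0.29 for number 6 and of -0.10 and -0.21 for numbers 2 and 20.

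Pegasus had the fewest counts of the family. Ikzf5 (ENSMUSG00000040167, chr7:131388652-131410521, minus strand) was counted 50, 71 and 65 times in WT 2, 6 and 20, against 45, 65 and 39 times in Exon2KO 2, 6 and 20. Its log2 difference of -0.26 had an SE of 0.28 and an adjusted p of 0.838 in edgeR, with a 95% confidence interval of -0.90 to 0.37, an interval that also holds the value of Ikzf2, so a change of that size was not excluded.

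**Figure D2:**
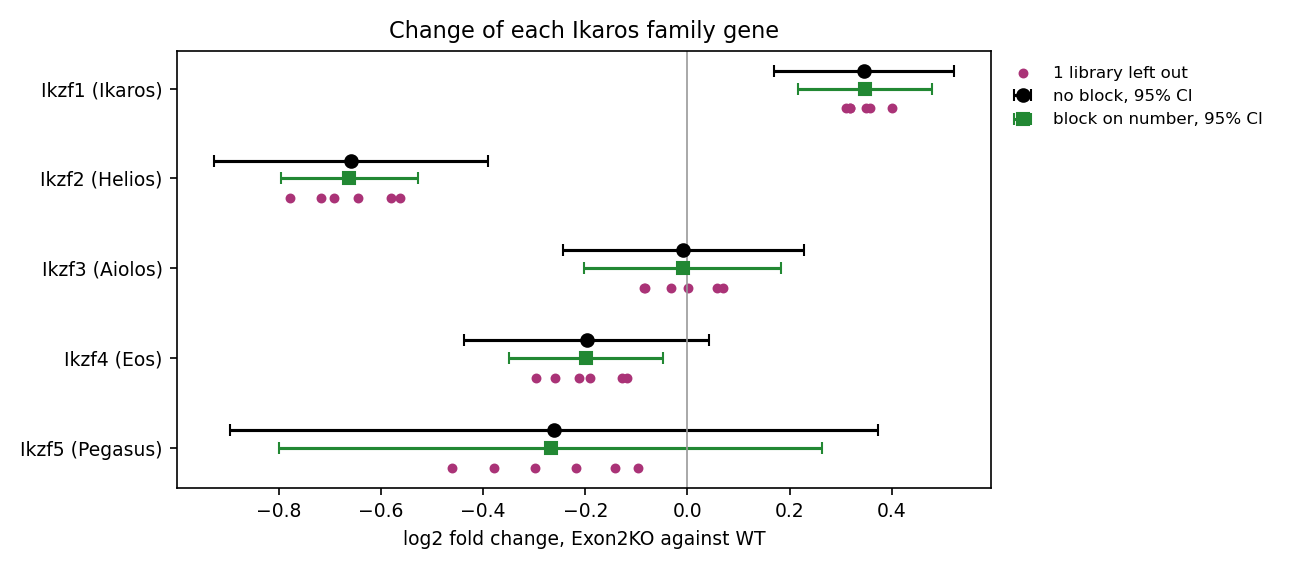
Log2 fold change of each member, Exon2KO against WT. Black points are the fit without a block and green squares the fit with the column number as a block, both with 95% confidence intervals; purple points are the 6 fits that each left out 1 library. Ikzf2 lies between -0.78 and -0.56 and Ikzf1 between 0.31 and 0.40 in those 6 fits, on opposite sides of 0.

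The make-up of the family is described by the share of each member in its summed level, with no test. Over the 5 genes the ranges of the sum overlapped, at 200.3 ± 14.1 CPM per kilobase in WT and 194 ± 7.49 CPM per kilobase in Exon2KO (SD, n = 3 each). Ikzf1 and Ikzf2 together, a sum formed after their values were seen, came to 125, 122 and 143 CPM per kilobase in WT 2, 6 and 20 and to 124, 121 and 137 CPM per kilobase in Exon2KO 2, 6 and 20. The ranges of this sum overlapped between the genotypes, though the Exon2KO sum was the lower in each of the 3 pairs of equal number. Ikzf1 made up 35.4 ± 1.45% of the summed CPM per kilobase in WT and 46.5 ± 0.498% in Exon2KO (SD, n = 3 each). The share of Ikzf2 was 29.4 ± 1.69% in WT and 19.3 ± 1.98% in Exon2KO (SD, n = 3 each), and neither gene's share overlapped between the genotypes. Ikzf3, with 19.3 ± 1.40% and 19.9 ± 2.85%, and Ikzf4, with 15.6 ± 1.42% and 14.1 ± 1.16% in WT and Exon2KO, overlapped (SD, n = 3 each).

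**Figure D3:**
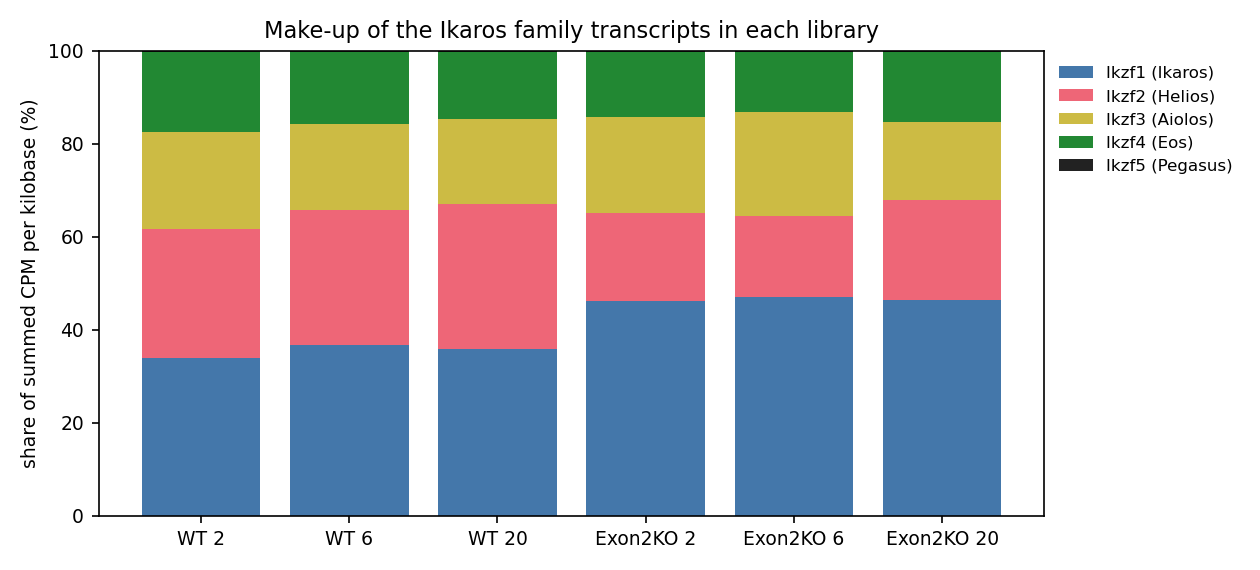
Share of each member in the summed CPM per kilobase of the Ikaros family (vertical axis, percent) in each of the 6 libraries. The Ikzf1 segment is 33.8% to 36.7% in WT and 46.1% to 47.1% in Exon2KO, the Ikzf2 segment 27.9% to 31.2% and 17.4% to 21.4%, and the Ikzf5 segment, under 1% in each library, is too thin to see.

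To ask whether members differed from each other in their response, the log2 ratio of each of the 10 pairs was taken within every library, which removes any effect of library scaling. The log2 ratio of Ikzf1 to Ikzf2 in CPM went from -0.74 ± 0.07 in WT to 0.27 ± 0.16 in Exon2KO (SD, n = 3 each), a difference of 1.01. Per kilobase, Ikzf1 was 1.21, 1.26 and 1.14 times Ikzf2 in WT 2, 6 and 20 and 2.42, 2.71 and 2.18 times in Exon2KO 2, 6 and 20. The ratio of Ikzf2 to its fellow Treg factor Ikzf4 fell by 0.46 on the log2 scale, from 1.90 ± 0.275 to 1.37 ± 0.0289 times per kilobase (SD, n = 3 each), a difference without overlap. The ratio of Ikzf2 to Ikzf3 differed by -0.65. Ratios of Ikzf1 to Ikzf3, Ikzf4 and Ikzf5 were higher in Exon2KO by 0.36, 0.55 and 0.61. These 6 ratios did not overlap between the genotypes. Each of them holds Ikzf1 or Ikzf2, the members whose own levels did not overlap, so they are not separate evidence. Each gave p = 0.1 in a two-sided exact permutation test, the smallest that 3 against 3 libraries allow (0.167 adjusted over the 10 pairs). The other 4 ratios overlapped, with exact permutation p between 0.3 and 0.8.

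The family's genes are spread over chromosomes 1, 7, 10 and 11, and the nearest tested genes beside Ikzf1 and Ikzf2 were not called. Ikzf2 lies alone in a wide stretch. Its nearest tested protein-coding genes, 2492342 and 1340253 bases away, were Lancl1 and Bard1, with log2 fold changes of 0.036 and -0.20 (edgeR adjusted p = 0.969 and 0.892). Beside Ikzf1, Fignl1 stood 14505 bases away at -0.36 (edgeR adjusted p = 0.845) and Zpbp at 0.055 (edgeR adjusted p = 0.977). The noncoding genes that overlap Ikzf2 are Gm29114 on the opposite strand with 182 counts over all 6 libraries and Gm28112 and Gm29112 on the same strand with 107 and 57. Their log2 fold changes were -0.91, -0.47 and -0.86, in the direction of Ikzf2, and were not called (edgeR adjusted p = 0.405, 0.843 and 0.855). Because these genes overlap Ikzf2 and the strand setting is not given, which gene their reads came from is uncertain. Gm12000 overlaps Ikzf1 with 412 counts and was at 0.11 (edgeR adjusted p = 0.960). Each single library held more counts of Ikzf1, at least 7125, and of Ikzf2, at least 7393. For Ikzf5 the overlap weighs more: Pstk on the opposite strand had 1861 counts over all libraries, and without a stated strand setting the reads of this pair are uncertain. These neighbours and overlapping genes were named after their values were seen.

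Ikaros proteins act through other proteins, so the genes of their known partners were examined as lists. NuRD is the nucleosome remodelling and deacetylase complex, which Ikaros and Helios recruit to chromatin. All 15 of its listed genes were tested, 0 were called without the replicate block (2.33% of all genes) or with it (9.72% of all genes), and their median log2 fold change was 0.019, against 0.0084 over all tested genes. The groups did not overlap in CPM for 2 of the 15, Chd4 and Mta3, a pattern that 17.7% of tested genes showed. Chd4, the remodelling enzyme, was at 719 ± 18.3 CPM in WT and 755 ± 15.7 CPM in Exon2KO (SD, n = 3 each). This was a log2 difference of 0.07 with an SE of 0.07 (adjusted p = 0.816 in edgeR). The deacetylase gene Hdac1 stood at 223 ± 10.7 and 228 ± 7.06 CPM (SD, n = 3 each), a log2 difference of 0.03 with an SE of 0.07 (adjusted p = 0.937 in edgeR). Among the CtBP, Sin3 and Rcor1 corepressor genes, 6 of 7 were tested, 0 were called, and the median was 0.075. In that list Ctbp1, the corepressor that Eos binds, was at 0.08 on the log2 scale with an SE of 0.07 (adjusted p = 0.798 in edgeR). Ctbp1 was the 1 tested gene of the list whose groups did not overlap. Ctbp2 had at most 11 counts in a library and was not tested.

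Among genes that act on the Ikaros proteins themselves, 0 were called either. Cereblon (Crbn) is the receptor of the ubiquitin ligase that drugs of the thalidomide type direct against Ikaros and Aiolos. Its log2 fold change was -0.08 (SE 0.08, edgeR adjusted p = 0.832), and 0 of the 5 ligase genes were called, with a median of 0.0080. Casein kinase 2 and protein phosphatase 1 add and remove phosphates on Ikaros. Of the 6 listed genes of these enzymes 0 were called, and the median was 0.010. Over these lists 32 of 33 genes were tested, and 0 were called without the block or with it, where 2.33% and 9.72% of all genes were. An unadjusted p under 0.05 in edgeR was reached by 0 of the 32 and by 12.1% of all tested genes. DESeq2 and limma-voom called 0 as well. For 30 of the 32, the 95% confidence interval lay within 0.5 on the log2 scale of no change. The exceptions were Chd5, with 107 and 110 counts in the libraries numbered 20 and 15 to 54 in the others, and Sap30, with 73 to 133 counts a library.

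**Figure D4:**
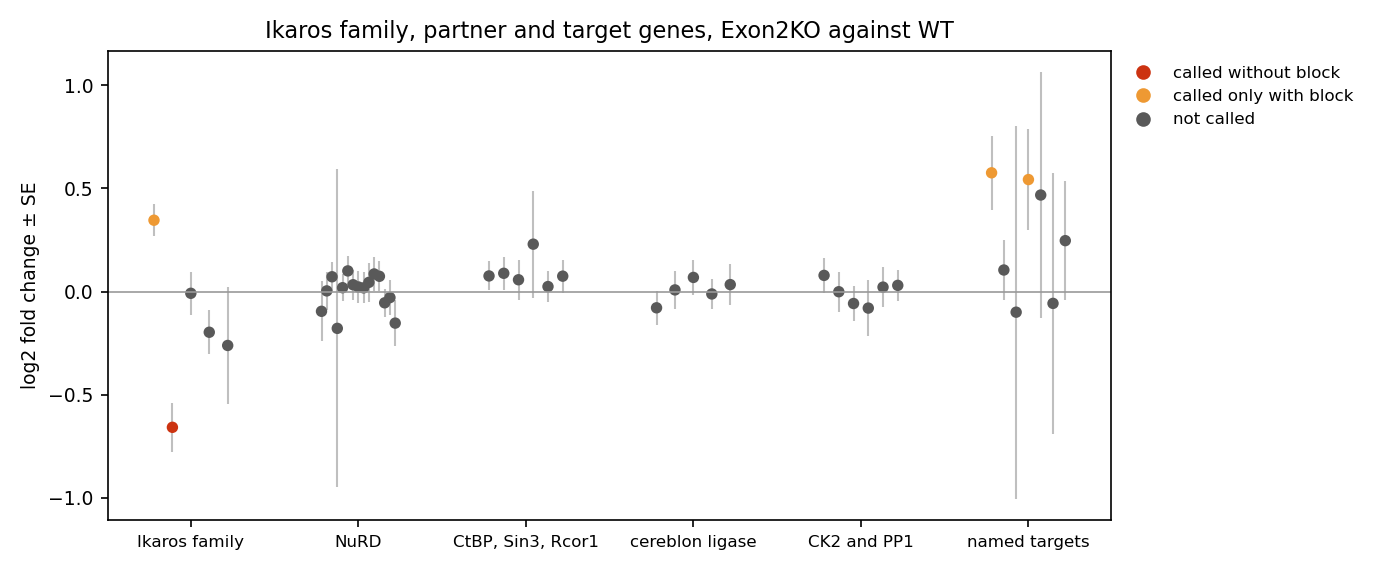
Log2 fold change ± SE (vertical axis), Exon2KO against WT, of each tested gene of the Ikaros family, of the partner lists and of the named targets; within a list, genes are in alphabetical order. Red marks the gene called without a block (Ikzf2), orange those called only with it (Ikzf1, Bcl2 and Dtx1) and grey the rest. The partner genes lie between -0.18 and 0.23.

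The last list held 12 genes known from lymphocytes as targets of Ikaros family factors, of which 7 had enough counts to be tested. Of these 7, 0 were called without the block (2.33% of all genes) and 1 had an unadjusted p under 0.05 (12.1% of all genes). With the replicate block 2 were called, Bcl2 and Dtx1, both higher, where 9.72% of all genes were called. The list's median log2 fold change was 0.25, and without Exon2KO 6 it turned to -0.11. Bcl2, the survival gene that Aiolos is known to activate, stood at 325, 307 and 201 CPM in WT 2, 6 and 20 and at 456, 418 and 367 CPM in Exon2KO 2, 6 and 20. The groups did not overlap, as for 17.7% of tested genes, and both libraries numbered 20 were the lowest of their genotype. The log2 fold change of Bcl2 was 0.58 (SE 0.18, edgeR adjusted p = 0.213), and 0.60 with the replicate block (SE 0.08, edgeR adjusted p = 0.000282). The authors' deposited table lists Bcl2 at 0.58 (adjusted p = 0.0105).

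Dtx1, a Notch pathway gene that Ikaros is known to hold down in thymocytes, was at 290, 199 and 328 CPM in WT 2, 6 and 20 and at 397, 301 and 494 CPM in Exon2KO 2, 6 and 20. The genotypes shared part of their range, since Exon2KO 6 was below WT 20, but the Exon2KO library was the higher in each pair of equal number. Its log2 fold change was 0.54 (SE 0.24, edgeR adjusted p = 0.477) without the block and 0.54 with it (SE 0.06, edgeR adjusted p = 3.02e-05). Other targets were called in no fit, and those given here were chosen after their values were seen. Il2, which encodes interleukin 2, had 1, 2 and 1 counts in WT and 8, 7 and 5 counts in Exon2KO libraries 2, 6 and 20. These counts were too few to be tested, and those of WT were under the 3 counts taken as the smallest level shown. Ifng, the interferon gamma gene, was at 0.47 on the log2 scale with an SE of 0.60 (adjusted p = 0.872 in edgeR), with 239 counts in Exon2KO 6 and 40 to 107 in the other libraries. Tbx21, which encodes T-bet, was at 0.25 (SE 0.29, edgeR adjusted p = 0.854), and it too was highest in Exon2KO 6.

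The genes whose log2 CPM followed each member most closely over the 6 libraries were picked by Pearson correlation among 8420 other protein-coding genes with a mean of at least 10 CPM. With 6 points that share genotype and column number, many genes reach high values, so these are descriptions. Closest to Ikzf2 were Tnfrsf4, the OX40 receptor gene (r = 0.990), Dclk2 (r = 0.989) and Myo1e (r = 0.988). Tnfrsf4 stood at 239 CPM in WT and 128 CPM in Exon2KO. Closest to Ikzf1 were Maml1, a Notch coactivator gene (r = 0.997), Tmem71 (r = 0.996) and Hsd11b1 (r = 0.994), and Tmem71 stood at 79.1 and 107 CPM. Ikzf3 was followed by Otud7b, Nf1 and Uhmk1 (r from 0.940 to 0.963) and Ikzf4 by Gtf2ird1, Rusc1 and Il15ra (r from 0.962 to 0.980). For Ikzf5, where 8421 genes were compared, Padi2, Tspan31 and Asb3 came first, with r from 0.990 to 0.997.

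The libraries held between 17998216 and 21003496 counts, and 3 counts, the smallest level taken as shown, came to 0.141 to 0.169 CPM, which covers counting error only. The first principal component of log2 CPM (33.2% of the variance) set both libraries numbered 20 apart from the rest. The 6 Treg and T cell markers, such as Foxp3, Il2ra and Cd4, summed to 2816 to 3115 CPM in WT and 2788 to 3051 CPM in Exon2KO. Of them, 2 were called, both in the direction of Ikzf2. Each count of called markers given here stands beside 2.33% called over all tested genes. Il2ra, the gene of the interleukin 2 receptor alpha chain, fell from a mean of 643 to 449 CPM (log2 fold change -0.52, SE 0.11; adjusted p = 0.0429 in edgeR). Ctla4, which encodes an inhibitory receptor, fell from 151 to 83.7 CPM (log2 fold change -0.85, SE 0.12; adjusted p = 0.00677 in edgeR). Cd4 was at 666 and 774 CPM (adjusted p = 0.315 in edgeR). The part of Treg marker levels in the result for Ikzf2 was not tested. B cells, which also express Ikzf1 and Ikzf3, left a small trace: their 6 markers summed to 38.6 to 44.7 CPM in WT and 31.6 to 34.3 CPM in Exon2KO, without overlap, 0 of the 6 were called, and their part in the results was not tested. Marker sums of plasma cells, myeloid cells, plasmacytoid dendritic cells and red cells overlapped between the genotypes, and 0 of these markers were called. Xbp1 (means of 82.2 CPM in WT and 85.9 CPM in Exon2KO) made up most of the plasma cell sum and Ccr9 (19.6 and 21.6 CPM) most of the plasmacytoid dendritic cell sum, so these sums say little of the more specific markers. Of those, Jchain was at 23.7 and 14 CPM with overlapping groups (adjusted p = 0.607 in edgeR). Siglech was at 0.805 and 0.307 CPM without overlap, as for 17.7% of tested genes (adjusted p = 0.337 in edgeR). The part of Jchain and Siglech in the results was not tested. The 7 CD8 and NK cell markers summed to 27.8 to 30.5 CPM in WT and 29.1 to 50.2 CPM in Exon2KO. The highest sum was in Exon2KO 6, and 0 of the 7 were called. Members of this list went both ways. Eomes had means of 5.91 CPM in WT and 12.2 CPM in Exon2KO with overlapping groups (adjusted p = 0.513 in edgeR). Klrb1c was at 2.86 and 1.71 CPM without overlap, as for 17.7% of tested genes (adjusted p = 0.440 in edgeR). The part of these markers in the results was not tested. Of the 6 stromal markers, Col3a1 had 0 counts in every library, and Pecam1, which T cells also express, made up nearly all of the sum.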

How the data were processed

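The members and gene lists were chosen with earlier results of these data known. The authors deposited 1 table with unnormalized counts per gene, 1 column a library, per the file headers. Its 6 FPKM columns were not used, since columns could be tied to a genotype but not to a single sample and 1 measure was kept; the levels per length that had been planned from them were computed from the counts, as CPM per kilobase of the table's gene length. The submitters' processing notes name HISAT2 2.0.5, StringTie 1.3.3b, featureCounts 1.5.0-p3, DESeq2 1.16.1 and the build mm10. The annotation and strand setting are not given in the sources used here. The table also holds the authors' own comparison of Exon2KO with WT: per the file headers, the log2 fold change with its p-value, raw and adjusted, and for each genotype a mean signal of scaled counts. GENCODE mouse release 21 holds 55394 of the 55840 gene identifiers; positions of Ikzf1, Ikzf2, Ikzf3 and Ikzf5 are the same there, while Ikzf4 spans more bases in the table.

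Counts were fitted with edgeR 4.0.16 in R 4.3.3 (filterByExpr, TMM, robust quasi-likelihood, two-sided, Benjamini-Hochberg over 14919 genes), without a covariate. The SE is the absolute log2 fold change divided by the square root of F. Other settings used DESeq2 1.42.0, limma 3.58.1 voom, other filters and scalings, a replicate block on the column number, and fits without single libraries. Leaving out both libraries numbered 20 was added after seeing the data. Pairing was checked by correlating deviations from the group means across genes. For numbers 2, 6 and 20, r was 0.271, 0.369 and 0.494, and the numbers were taken to pair the libraries. Libraries of unequal number were not compared in this way, so the check cannot tell this matching from another. No label says what the numbers stand for, and the titles number replicates differently. Counts of replicate libraries differed by more than sampling noise (chi-square per degree of freedom at least 8.12), so all 6 were kept.

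Ratios of members used log2 CPM with a prior count of 2. Named genes were all members, called partner and target genes, Foxp3 and the 3 genes most correlated with each member; other genes named beside these, such as partner, target, neighbouring and marker genes, were chosen after their values were seen. On simulated data for this comparison (14554 genes), edgeR without a block called 62% of genes changed 2-fold. It called 26% of those changed 1.5-fold and 6% of those changed 1.25-fold, with 7 false calls. With the replicate block these were 62%, 24% and 2%, with 16 false calls. The simulated counts held no effect of the column number, so they do not describe the block fit to the real data.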

Additional observations from a re-analysis of the deposited data

How the results depend on the processing

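Ikzf1 kept a higher and Ikzf2 a lower level in Exon2KO in all 15 alternatives, and Ikzf4 and Ikzf5 kept their negative direction in all 15. Ikzf1 passed the threshold without a count filter (0.34), with DESeq2 (0.35) and with the replicate block (0.35), so that 2 members were called in each of these. Its adjusted p ran from 0.00166 to 0.218 over all alternatives, and that of Ikzf2 from 6.35e-06 to 0.122. Leaving out 1 library at a time, in 6 fits, gave log2 fold changes from 0.31 to 0.40 for Ikzf1, from -0.78 to -0.56 for Ikzf2, from -0.30 to -0.12 for Ikzf4, from -0.46 to -0.096 for Ikzf5 and from -0.086 to 0.070 for Ikzf3, which changed sign, and 0 to 1 members were called. Without both libraries numbered 20, Ikzf3 was at 0.084. The replicate block changed no other member's call. Target genes called were 1 with DESeq2 and without the libraries numbered 20 (Bcl2 in both), and 2 with the block. The log2 ratio of Ikzf4 to Ikzf5 changed sign, from 0.061 to -0.14 without the libraries numbered 20 and between -0.16 and 0.31 over the fits without 1 library. All other ratios kept their direction. All genes called were 348 in the fit without a block, 617 without a count filter, 667 with DESeq2, 1450 with the block and 86 to 314 without 1 library. The causes were not tested. Ikzf5 had 39 to 71 counts a library, against at least 7125 for Ikzf1. The column numbers are the only basis of the block, and 3 libraries a genotype limit every test.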
